A study of Mus musculus with 6 samples.

Results

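The genes of the vascular endothelial growth factor (VEGF) family, the angiopoietins and the hypoxia-inducible factors were read in immortalized murine embryonic fibroblasts (MEF) that lacked either of the RNA-binding proteins TIA1 and TIAR. Every probe of the array that carried the symbol Vegfa, Vegfb, Vegfc, Figf, Flt1, Kdr, Angpt1, Angpt2, Hif1a or Epas1 was taken, which gave 10 genes of 34797 gene names and 17 probes of 55681. Figf is the older symbol of the gene that RefSeq now names Vegfd, and all 10 symbols matched RefSeq through the accessions of their probes.

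Total RNA was measured on 6 one-colour Agilent arrays, 2 for each line. The wild-type line (WT MEF) carried the strain label W4, the line without TIAR (TIAR KO MEF) the label C57BL/6 and the line without TIA1 (TIA1 KO MEF) the label BALB/c, so that an effect of genotype cannot be told apart from one of strain or line. Each group was 1 immortalized line, no treatment was given in the labels, and the 2 arrays of a group were described as different biological samples. Both knockouts were compared with the same 2 WT arrays, so the 2 comparisons are not independent, and a further comparison set TIAR KO MEF against TIA1 KO MEF directly.

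VEGF-A, VEGF-B, VEGF-C and VEGF-D are secreted ligands of receptor tyrosine kinases of blood and lymph vessels, among them FLT1 and KDR, and angiopoietin 1 and angiopoietin 2 act on the receptor TEK of endothelial cells. HIF-1α and HIF-2α, the products of Hif1a and Epas1, are transcription factor subunits that are destroyed in well-oxygenated cells and that drive genes of glycolysis, oxygen supply and matrix when oxygen is low. TIA1 and TIAR bind uridine-rich and AU-rich stretches of RNA and act on splicing, translation and decay, and the mRNAs of Vegfa and Hif1a are among their known targets. The arrays measured RNA abundance only, and no protein.

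All values are log2 intensities after background correction and normalization of the 6 arrays together, and a gene is read from its brightest probe unless another is named. A difference was called where limma gave an adjusted p under 0.05 and the fold was above 2. A probe was detected on an array where the scanner software marked it well above background. The arrays detected 23531 and 26254 probes for WT, 16000 and 19920 for TIA1 KO and 24754 and 25985 for TIAR KO MEF. The TIA1 KO arrays stood apart, since the median raw intensity of the first was 458 and of the second 218, against 119 to 152 on the other 4 arrays. All arrays lay on 1 slide, with the TIA1 KO arrays in another row of it, so that slide row and group cannot be told apart for them.

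The lines were checked by the targeted genes. For Tial1, which encodes TIAR, a probe at chr7:135583306-135583365 (mm9, minus strand) read 11.71 and 11.09 in WT, 11.85 and 11.49 in TIA1 KO and 10.00 and 9.65 in TIAR KO MEF, and the fall in TIAR KO MEF passed the test (log2 fold change −1.58 ± 0.26 (SE), adjusted p = 0.0254). The brightest Tial1 probe read 9.57 and 11.60 in TIAR KO MEF and 13.22 on the 1 WT array that measured it, and did not pass (adjusted p = 0.20). The brightest Tia1 probe read 10.72 and 8.54 in WT MEF, and the TIA1 KO values of 7.87 and 8.44 lay just under the lower WT value. A second Tia1 probe went from 9.56 and 9.90 in WT to 7.57 and 8.65 in TIA1 KO MEF with no overlap, and the first TIA1 KO array detected neither probe. Neither the brightest probe (adjusted p = 0.288) nor the second (adjusted p = 0.116) passed in TIA1 KO MEF, and the remaining Tia1 probe read 7.44 and 7.25 in WT MEF, undetected, and higher in TIA1 KO MEF, at 7.88 and at 8.54 on the 1 array that detected it (adjusted p = 0.149). Whether the Tia1 probes lie in the deleted part was not tested.

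The fibroblast label was checked with 12 markers. Vim, S100a4, Col1a1, Col1a2 and Fn1 were detected on all 6 arrays, and of the 12 markers 7 rose without TIA1 and 8 without TIAR, where 2.88% and 4.36% of all gene names did. Of the 7, Col1a2 and Dcn were not called in the authors' table (adjusted p = 0.0628 and 0.105) or without loess, and Col1a1 and Col1a2 not under scaling to a common median. Pdgfra, a receptor of fibroblasts, read 6.37 and 6.40 in WT, where it was not detected, 10.05 and 10.23 in TIA1 KO and 11.68 and 11.51 in TIAR KO MEF. Thy1 and Dcn, other fibroblast genes, were detected on only 1 of the 2 WT arrays, at 6.98 and 6.62, and Lum on no array. The summed linear intensity of the list, whose brightest probe was S100a4, was 533734 and 567320 in WT, 1315161 and 1289891 in TIA1 KO and 1392535 and 1418980 in TIAR KO MEF. The lines thus differed in fibroblast and matrix RNA as well as in the genes below, and the part of this in the results was not tested. In RNA from whole cultures, fewer cells of a type and less RNA per cell cannot be told apart.

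Of the 10 genes, 4 were called in TIA1 KO MEF against WT MEF, all higher: Vegfa, Vegfc, Flt1 and Angpt1. Over all gene names 4.51% were called in this comparison, 2.88% higher and 1.63% lower. In TIAR KO MEF 3 of the 10 were called, all higher: Figf, Flt1 and Angpt2. There the background was 7.18% of gene names, 4.36% higher and 2.82% lower. Flt1 stood in both counts, which share the WT arrays. The median log2 fold change of the 10 genes was 0.42 in TIA1 KO MEF, where that of all gene names was −0.07, and 0.51 in TIAR KO MEF, where that of all gene names was −0.01. In TIAR KO MEF against TIA1 KO MEF, Angpt2 was called higher and Angpt1 lower, beside 4.18% of gene names, 2.06% higher and 2.12% lower. The shares of all gene names, here and below, include many genes that were not detected. With the fit kept to probes detected on both arrays of a compared group, the shares called were higher. They were 2922 of 23423 probes in TIA1 KO MEF and 3334 of 25187 in TIAR KO MEF against WT MEF. Between the knockouts 2910 of 24025 were called.

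**Figure D1:**
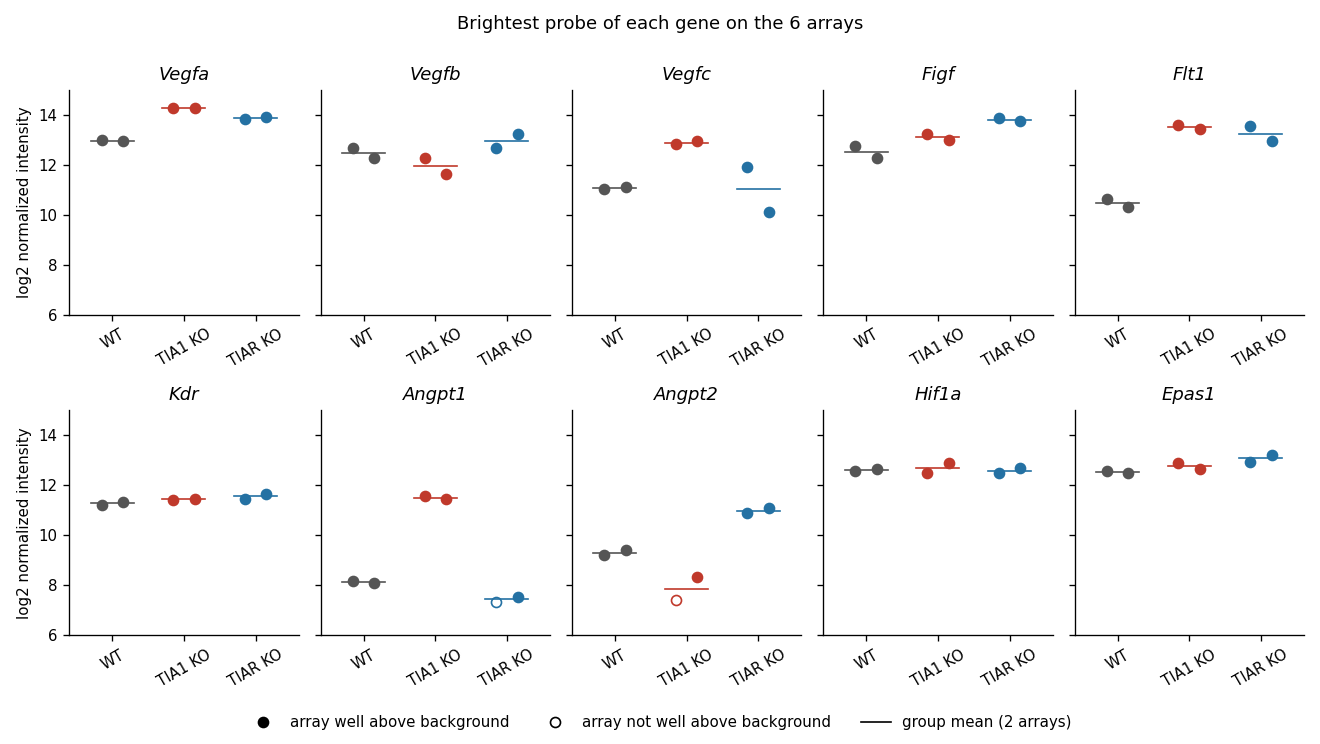
Log2 normalized intensity (vertical axis) of the brightest probe of each of the 10 genes on the 2 WT, 2 TIA1 KO and 2 TIAR KO arrays (horizontal axis), as filled points where the probe was well above background and open points where it was not, with the group mean as a line. Flt1 lay at 10.62 and 10.29 in WT MEF and at 12.94 or above on the 4 knockout arrays, while the Hif1a values of the 3 groups overlapped.

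The calls in TIA1 KO MEF rested on both WT arrays. Without either of them no probe was called in that comparison, while leaving out the second TIA1 KO array raised the probes called from 1969 to 10735. The direction of the smaller changes in TIA1 KO MEF also differed between scalings of the arrays. With scaling to a common median in place of loess and quantiles, the median of all probes moved to −0.67 in TIA1 KO MEF against WT MEF, so that a fitted value under that scaling is to be set against it.

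Vegfa, the chief ligand for the growth of new blood vessels, was read by a brighter probe of 2 spots at chr17:46154387-46154446 (mm9, minus strand) and by a dimmer probe of 1 spot.

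The brighter probe read 12.98 and 12.93 in WT, 14.26 and 14.25 in TIA1 KO and 13.84 and 13.90 in TIAR KO MEF. The 3 groups did not overlap, with WT lowest and TIA1 KO highest, and within a group the 2 arrays lay at most 0.07 apart. Vegfa was 2.46-fold higher in TIA1 KO MEF (log2 fold change 1.30 ± 0.15 (SE), adjusted p = 0.0326), but under scaling to a common median the value was −0.29, below 0 and 0.38 above the median of all probes. In TIAR KO MEF Vegfa was 1.89-fold higher (0.92 ± 0.14, adjusted p = 0.0203), which passed the p threshold and not the fold threshold, and the value stayed above 0 under every alternative tried. The difference between the knockouts, −0.38 with a 95% interval from −0.79 to 0.02, was not called (adjusted p = 0.236).

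The dimmer probe of Vegfa read 10.00 and 9.41 in WT, 10.96 and 10.16 in TIA1 KO and 9.83 and 10.42 in TIAR KO MEF. Its arrays differed by 0.59 or more within each group, and the WT and TIAR KO values overlapped. The fold changes of 0.86 ± 0.37 in TIA1 KO MEF (adjusted p = 0.222) and 0.42 ± 0.29 in TIAR KO MEF (adjusted p = 0.524) had the sign of the brighter probe and did not pass. With all probes of the gene averaged, the value in TIA1 KO MEF was 1.08 (adjusted p = 0.0721), and with an offset of 16 in the background correction it was 1.30 (adjusted p = 0.0507).

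Vegfc, a ligand of lymphatic vessel growth, read 11.01 and 11.12 in WT, 12.82 and 12.95 in TIA1 KO and 11.92 and 10.11 in TIAR KO MEF. The TIA1 KO arrays were above all others, and the 2 TIAR KO arrays lay on either side of WT, 1.81 apart. The rise in TIA1 KO MEF was 3.53-fold (1.82 ± 0.16, adjusted p = 0.0188), was not called with all 3 groups fitted together, where the TIAR KO spread enters the error (adjusted p = 0.0943), and was 0.33 under scaling to a common median, 1.00 above the median of all probes and not called (adjusted p = 0.599). For TIAR KO MEF the interval ran from −1.50 to 1.41 on the log2 scale, so that no change of Vegfc could be seen there at this spread.

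Figf, which encodes VEGF-D, was printed in 10 spots and read 12.76 and 12.29 in WT, 13.23 and 12.97 in TIA1 KO and 13.87 and 13.74 in TIAR KO MEF. The groups stood in the order WT, TIA1 KO and TIAR KO with no overlap. The rise of 2.43-fold in TIAR KO MEF was called (1.28 ± 0.20, adjusted p = 0.0233), and that of 0.58 ± 0.23 in TIA1 KO MEF was not (adjusted p = 0.205). The call in TIAR KO MEF was lost without the second WT array (1.05, adjusted p = 0.0615) and without either TIAR KO array (adjusted p = 0.115 and 0.0953). It was lost too from the processed intensities of the scanner software (adjusted p = 0.104) and under scaling to a common median, where 0.83 is under the fold threshold. Within the second WT array the spots of this probe ran from 11.64 to 12.99, the widest range of the 6 arrays for this probe.

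Vegfb, a ligand of FLT1, read 12.69 and 12.26 in WT, 12.26 and 11.62 in TIA1 KO and 12.67 and 13.23 in TIAR KO MEF. It was not called in any comparison, with −0.53 ± 0.30 in TIA1 KO MEF (adjusted p = 0.303) and 0.48 ± 0.25 in TIAR KO MEF (adjusted p = 0.397). The direct difference of 1.01 between the knockouts had an interval from 0.14 to 1.89 and an adjusted p of 0.184. Under scaling to a common median Vegfb was called lower in TIA1 KO MEF than in WT MEF (−2.10, adjusted p = 0.000218), −1.43 from the median of all probes, and higher in TIAR KO MEF than in TIA1 KO MEF (2.14, adjusted p = 0.000328), 1.52 above that median.

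**Figure D2:**
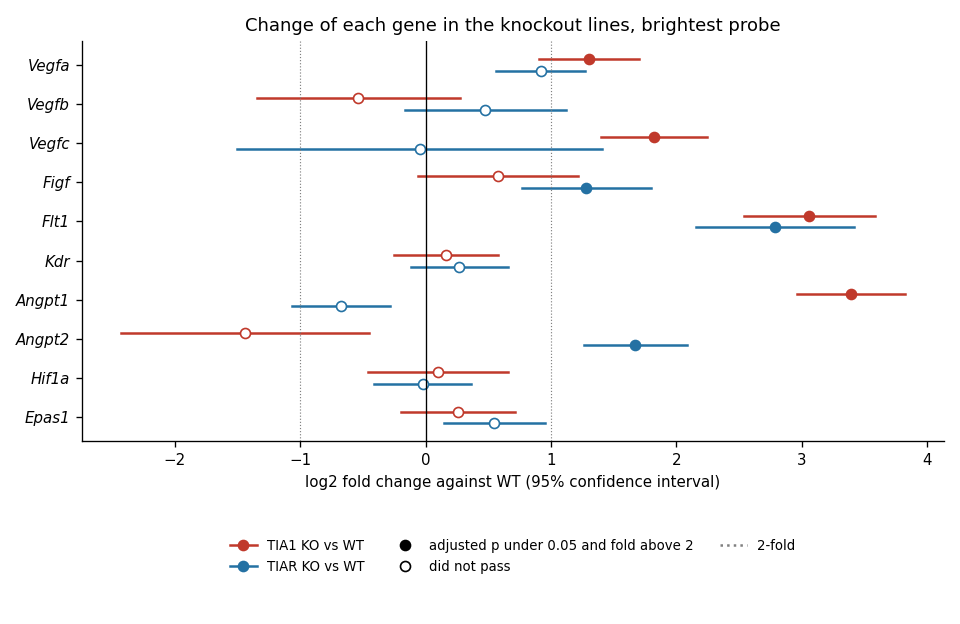
Log2 fold change against WT (horizontal axis) of the brightest probe of each of the 10 genes (vertical axis) in TIA1 KO and TIAR KO MEF, with the 95% confidence interval of the limma fit as a line and filled points for genes that were called. Flt1 lay at 3.06 and 2.79, Angpt1 at 3.39 and −0.68, and Angpt2 at −1.44 and 1.67, and under scaling to a common median the TIA1 KO values of Vegfa, Figf, Kdr, Hif1a and Epas1 and the TIAR KO value of Kdr fell below 0.

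Flt1 encodes VEGF receptor 1, which binds VEGF-A and VEGF-B and also occurs as a secreted form that traps them. Its brightest probe, at chr5:148373791-148373850 (mm9, minus strand), read 10.62 and 10.29 in WT, 13.60 and 13.43 in TIA1 KO and 13.54 and 12.94 in TIAR KO MEF. All 4 knockout arrays were above both WT arrays, and the knockouts overlapped each other. The rise was 8.34-fold in TIA1 KO MEF (3.06 ± 0.19, adjusted p = 0.00978) and 6.91-fold in TIAR KO MEF (2.79 ± 0.25, adjusted p = 0.00359).

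A second Flt1 probe, at chr5:148446872-148446931, read 9.61 and 9.70 in WT, 12.11 and 12.31 in TIA1 KO and 11.52 and 11.86 in TIAR KO MEF. It was called in both knockouts too, at 2.55 ± 0.16 (adjusted p = 0.0105) and 2.04 ± 0.17 (adjusted p = 0.00311). The remaining Flt1 probe, at chr5:148465976-148466035, was not detected on any array. Which exons the 3 probes read, and so whether they tell the membrane form from the secreted form, was not tested. The difference of Flt1 between the knockouts was −0.27 with an interval from −0.97 to 0.43 and was not called (adjusted p = 0.543).

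Kdr, the main signalling receptor of VEGF-A, read 11.23 and 11.35 in WT, 11.43 and 11.47 in TIA1 KO and 11.47 and 11.65 in TIAR KO MEF. It was not called in either knockout, at 0.16 with an interval from −0.25 to 0.57 and at 0.27 with an interval from −0.12 to 0.65. The TIA1 KO value turned to −1.33 under scaling to a common median and was called lower (adjusted p = 0.024), −0.66 from the median of all probes. A second Kdr probe, printed in 10 spots, was not detected on the WT and TIA1 KO arrays, where it read between 6.93 and 7.39, and read 8.25 and 8.40 in TIAR KO MEF. There it was at least 2.33-fold higher than in WT MEF (adjusted p = 0.00708). The limit was set on each array by the higher of the lowest signal well above background and the probe's own value. The probes of Kdr thus differed in TIAR KO MEF.

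By their brightest probes, 1 of the other 4 genes of the VEGF axis was called in each knockout. Among all gene names 7.18% were called without TIAR and 4.51% without TIA1. With 4 genes, the list is too short to be set against these shares. The called gene was Nrp1, a co-receptor for VEGF-A, in both knockouts. From 7.84 and 7.62 in WT it went to 10.36 and 10.54 without TIA1 (2.72 ± 0.17, adjusted p = 0.0102) and to 9.79 and 9.64 without TIAR (1.99 ± 0.16, adjusted p = 0.00253). The co-receptor Nrp2 was not called by its brightest probe, at 0.64 and −0.67, while a second probe gave −1.96 ± 0.29 in TIAR KO MEF (adjusted p = 0.0177). Pgf, a ligand of FLT1, read 8.67 and 8.52 in WT MEF and was not detected in TIA1 KO MEF (at least 1.67-fold lower, adjusted p = 0.0883). Flt4, the receptor of VEGF-C and VEGF-D, was detected on the TIAR KO arrays alone, at 7.74 and 7.75, and was not called.

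**Figure D3:**
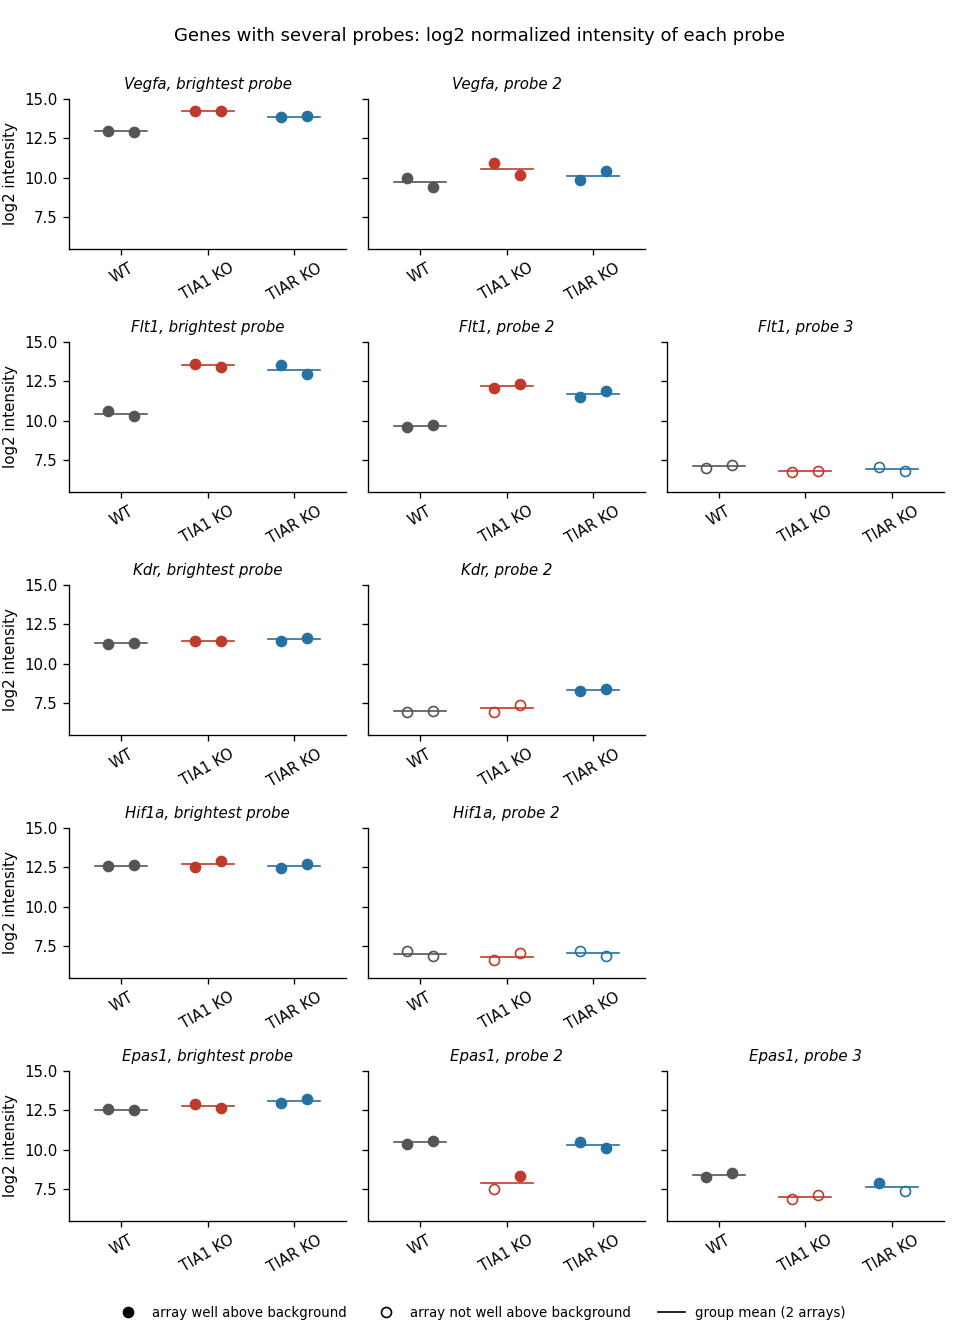
Log2 normalized intensity (vertical axis) of every probe of Vegfa, Flt1, Kdr, Hif1a and Epas1 on the 6 arrays, with the brightest probe of each gene in the left column, filled points where the probe was well above background and the group mean as a line. The first 2 Flt1 probes were higher on all knockout arrays, while the Epas1 probes differed in direction in TIA1 KO MEF, where the brightest read 12.90 and 12.67 and the second 7.53 and 8.31.

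Angpt1 encodes the activating ligand of TEK and is made mainly by mural and mesenchymal cells. It read 8.17 and 8.08 in WT, 11.59 and 11.44 in TIA1 KO and 7.34 and 7.56 in TIAR KO MEF, where 1 of the 2 arrays was well above background. The TIA1 KO arrays were far above the others and the TIAR KO arrays below WT. Angpt1 rose 10.5-fold in TIA1 KO MEF (3.39 ± 0.16, adjusted p = 0.00582) and exceeded its level in TIAR KO MEF, where 1 array did not detect it, by at least 16.8-fold (−4.07 ± 0.17 for TIAR KO over TIA1 KO, adjusted p = 0.00678). The value of −0.68 ± 0.15 in TIAR KO MEF against WT MEF was not called (adjusted p = 0.0679), and was called from the processed intensities of the scanner software (−1.77, adjusted p = 0.0435).

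Angpt2 encodes the ligand that in many settings opposes angiopoietin 1 at TEK. It read 9.20 and 9.42 in WT, 7.40 and 8.35 in TIA1 KO, where 1 array was well above background, and 10.90 and 11.08 in TIAR KO MEF. The 3 groups did not overlap, with TIA1 KO lowest and TIAR KO highest, the reverse of their order for Angpt1. The rise in TIAR KO MEF was 3.19-fold (1.67 ± 0.16, adjusted p = 0.00477), and Angpt2 was higher in TIAR KO MEF than in TIA1 KO MEF (3.11 ± 0.36, adjusted p = 0.0354), by at least 6.96-fold with the undetected TIA1 KO array at its background limit. In TIA1 KO MEF against WT MEF the value was −1.44 ± 0.36 (adjusted p = 0.114), and the call gained without the second TIA1 KO array (adjusted p = 0.0119) rested on the array that did not detect Angpt2, against which WT MEF were at least 2.44-fold higher. Under scaling to a common median, with both TIA1 KO arrays kept, Angpt2 was called lower too (−2.23, adjusted p = 8.1e-05), −1.56 from the median of all probes. Without either TIAR KO array both direct differences kept their size, at −3.96 and −4.18 for Angpt1 and 3.20 and 3.02 for Angpt2, and lost their calls, with adjusted p between 0.228 and 0.345.

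A list of 10 further genes of the angiopoietin axis, the angiopoietin-like genes with Angpt4, Tek, Tie1 and Ptprb, was read, and limma called 0 of them in TIA1 KO MEF (4 at an unadjusted p under 0.05). In TIAR KO MEF 3 rose and 1 fell, beside 4.36% and 2.82% of all gene names there and 4.51% called in TIA1 KO MEF. Ptprb, a phosphatase that acts on TEK, was not detected in WT MEF and read 11.22 and 10.23 in TIAR KO MEF, at least 14.3-fold higher (adjusted p = 0.00252), although its other 2 probes were not detected on any array. Angpt4, a further ligand of TEK, was at least 3.86-fold higher (adjusted p = 0.00187), and Angptl4, an inhibitor of lipoprotein lipase, rose by 1.29 ± 0.18 (adjusted p = 0.0164). Angptl6 fell by 1.15 on the log2 scale (adjusted p = 0.0202). The calls of Angptl4 and Angptl6 were lost from the processed intensities of the scanner software (adjusted p = 0.0778 and 0.109). Both genes moved the same way in TIA1 KO MEF without a call. Angptl4 read 8.45 and 8.63 in WT and 9.67 and 10.30 in TIA1 KO MEF. Angptl6 read 10.57 and 10.74 in WT and 9.84, undetected, and 9.50 in TIA1 KO MEF. Neither was called between the knockouts. The receptor Tek was detected on 1 TIAR KO array and Tie1 on none.

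Hif1a read 12.57 and 12.65 in WT, 12.50 and 12.91 in TIA1 KO and 12.48 and 12.69 in TIAR KO MEF. The groups overlapped in every comparison. The log2 fold changes were 0.10 with an interval from −0.46 to 0.66 in TIA1 KO MEF (adjusted p = 0.76) and −0.02 with an interval from −0.41 to 0.37 in TIAR KO MEF (adjusted p = 0.963), so that a change above 2-fold lay outside both intervals. Scaled to a common median, the value in TIA1 KO MEF was −1.48 (adjusted p = 0.0114), which lay −0.80 from the median of all probes. A second Hif1a probe was not detected on any array.

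Epas1 read 12.57 and 12.49 in WT, 12.90 and 12.67 in TIA1 KO and 12.95 and 13.21 in TIAR KO MEF by its brightest probe, at chr17:87230678-87230737 (mm9, plus strand). It was not called in either knockout by this probe (0.26 ± 0.17, adjusted p = 0.357, and 0.55 ± 0.16, adjusted p = 0.126). Its TIA1 KO value turned to −1.33 under scaling to a common median and was called lower (adjusted p = 0.0244), −0.66 from the median of all probes. Without that scaling, the other 2 probes went the opposite way to the brightest in TIA1 KO MEF. At chr17:87232615-87232674 the values were 10.39 and 10.56 in WT, 7.53 and 8.31 in TIA1 KO and 10.47 and 10.10 in TIAR KO MEF, a fall in TIA1 KO MEF that passed the test (−2.56 ± 0.31, adjusted p = 0.0372). Only the second TIA1 KO array detected this probe, and with the first at its background limit the fall was at least 4.95-fold. At chr17:87230587-87230646 the probe read 8.25 and 8.53 in WT MEF and was not detected in TIA1 KO MEF, at least 1.77-fold lower (adjusted p = 0.0462). In the authors' log2 table neither of these 2 probes was called (adjusted p = 0.0682 and 0.0586). No single direction can be given for Epas1 in TIA1 KO MEF, and with its 3 probes averaged the value was −1.24 (adjusted p = 0.0347).

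Of 15 partners and regulators of the hypoxia-inducible factors, 1 was called in each knockout, both lower, a share near that of all gene names (4.51% and 7.18%) and so no result about the list. Arnt, the partner subunit of HIF-1α and HIF-2α, went from 12.47 and 12.38 in WT to 11.37 and 11.28 in TIA1 KO MEF (−1.10 ± 0.15, adjusted p = 0.0463). The Arnt call was lost with an offset of 16, without loess, in the authors' table and from the processed intensities of the scanner software, with adjusted p between 0.0508 and 0.075. It was kept under scaling to a common median (−2.65, adjusted p = 2.15e-06), −1.98 from the median of all probes. A second Arnt probe went from 11.27 and 11.48 in WT to 8.87, undetected, and 9.61 in TIA1 KO MEF, at least 4.39-fold lower. The remaining Arnt probe was not detected on any array. Egln1, a prolyl hydroxylase that marks HIF-1α for destruction, went from 9.25 and 9.53 in WT to 7.53 and 7.73 in TIAR KO MEF (−1.76 ± 0.17, adjusted p = 0.00511). In TIA1 KO MEF Egln1 read 7.58 and 8.03, also below both WT values, but was not detected and was not called.

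The known target genes of the hypoxia-inducible factors did not move as a block. Of 40 targets, 9 were called higher and 1 lower in TIA1 KO MEF, beside 2.88% and 1.63% of all gene names. In TIAR KO MEF 6 were called higher and 7 lower, beside 4.36% and 2.82% of all gene names. Called or not, 22 of the 40 targets were lower than WT without TIA1 and 24 without TIAR. The list had a median log2 fold change of −0.11 without TIA1 and −0.13 without TIAR. In TIA1 KO MEF the largest rises were those of Stc2, a secreted glycoprotein, from undetected in WT MEF to 12.24 and 11.54 (at least 26.3-fold, adjusted p = 0.00862), and of the collagen cross-linking enzyme gene Lox, from 10.08 and 9.82 to 14.35 and 14.24 (4.34 ± 0.17, adjusted p = 0.0049). Adm, which encodes the vasodilator adrenomedullin, rose by 3.39 ± 0.31 (adjusted p = 0.0215), and Pdgfb, a growth factor for mural cells, by 2.94 ± 0.20 (adjusted p = 0.0122). Under scaling to a common median 4 of the 9 that rose were no longer called, Cxcl12 (0.25), Edn1 (0.84), Loxl2 (0.28) and P4ha2 (−0.0056), and these lay 0.92, 1.51, 0.95 and 0.66 above the median of all probes. The gene called lower was Tpi1, an enzyme of glycolysis (−1.13 ± 0.15, adjusted p = 0.044). This call was lost with an offset of 16, without loess, in the authors' table and from the processed intensities (adjusted p between 0.0517 and 0.075). It was kept under scaling to a common median (−2.62, adjusted p = 2.96e-06), −1.94 from the median of all probes. A second Tpi1 probe went from 15.49 and 15.60 in WT to 14.51 and 14.67 in TIA1 KO MEF, short of the fold threshold.

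In TIAR KO MEF the largest rises among the targets were of Loxl2, a relative of Lox (3.47 ± 0.19, adjusted p = 0.000817), of the chemokine gene Cxcl12 by its brightest probe (2.38 ± 0.18, adjusted p = 0.00211), of Lox (2.21 ± 0.17, adjusted p = 0.00237) and of Pdgfb (1.79 ± 0.19, adjusted p = 0.00602). The largest falls were of Ankrd37 (−2.20 ± 0.31, adjusted p = 0.0151) and of Pdk1 (−1.63 ± 0.14, adjusted p = 0.00311). They were followed by the lactate transporter gene Slc16a3 (at least 2.76-fold lower, adjusted p = 0.00853), which 1 of the 2 TIAR KO arrays did not detect. Pfkl, a phosphofructokinase of glycolysis, came after it (−1.31 ± 0.14, adjusted p = 0.00703). Pdk1 and Pfkl were lower than WT in TIA1 KO MEF too, though not called there. Pdk1 went from 10.32 and 10.28 in WT to 7.50, undetected, and 8.73 in TIA1 KO MEF. Pfkl went from 13.15 and 13.24 in WT to 12.13 and 12.34 in TIA1 KO MEF. The TIA1 KO values of Ankrd37 and Slc16a3 overlapped those of WT, and Slc16a3 was undetected in TIA1 KO MEF. A second Cxcl12 probe, detected on all 6 arrays, was not called in either knockout (0.60 in TIA1 KO MEF, adjusted p = 0.125, and 0.33 in TIAR KO MEF, adjusted p = 0.38), so that the probes of Cxcl12 differed. From the processed intensities of the scanner software 7 of the 13 calls in TIAR KO MEF were kept, without Bnip3, Car12, P4ha2, Pfkfb3, Pfkl and Plod2, and all 13 kept their direction. The glycolysis genes Ldha, Pgk1, Aldoa, Gapdh and Eno1 were not called in either comparison.

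**Figure D4:**
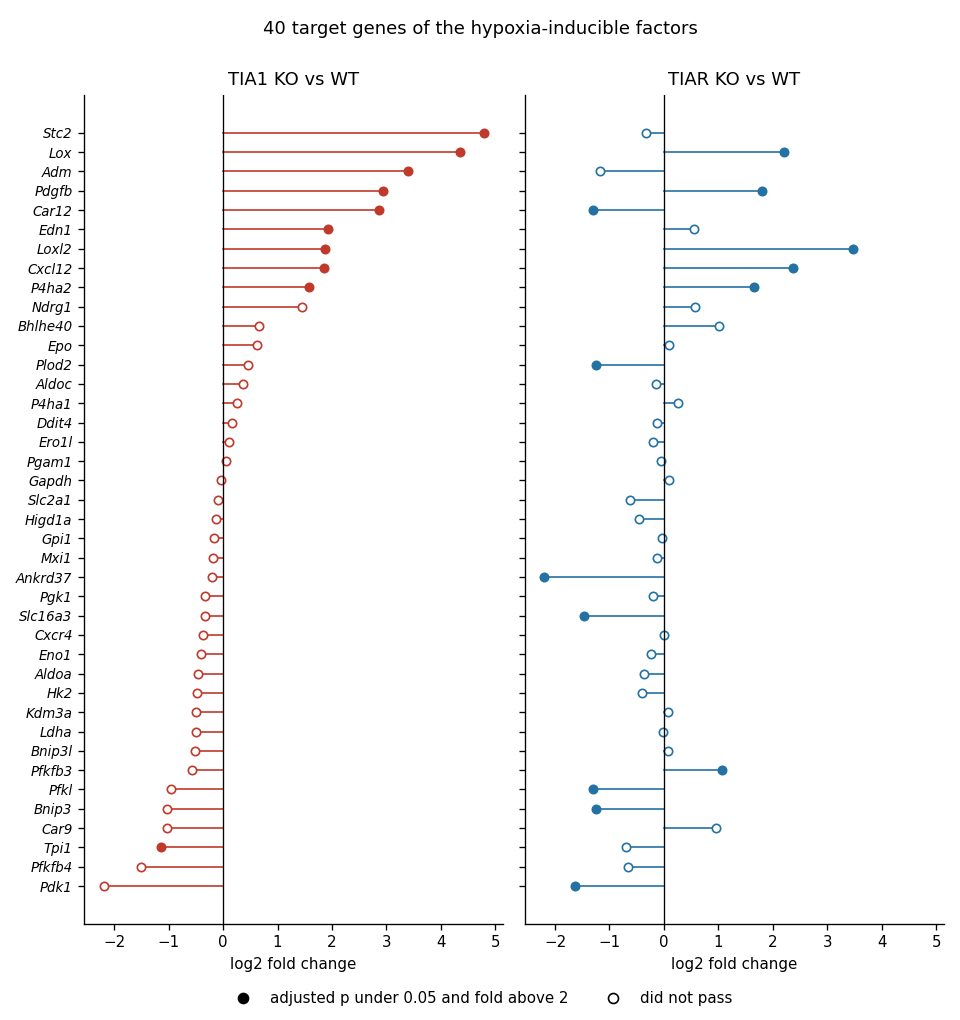
Log2 fold change (horizontal axis) of 40 target genes of the hypoxia-inducible factors (vertical axis, ordered by the value in TIA1 KO MEF) in TIA1 KO and TIAR KO MEF against the same WT arrays, with filled points for called genes. Lox lay at 4.34 and Adm at 3.39 in TIA1 KO MEF, where the point of Stc2 is drawn at its measured value although WT MEF give only a limit, and 9 targets rose and 1 fell there against 6 and 7 in TIAR KO MEF, with P4ha2 just below 0 in TIA1 KO MEF under scaling to a common median.

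The sequence before the transcription start was set beside these values for Flt1, which rose in both knockouts, for Vegfa, and for Hif1a, which was not called. The 250 bases are from RefSeq (GRCm38.p6), and capitals mark each ACGTG or GCGTG on either strand, the core of the hypoxia response element, so that on the other strand it appears as CACGT or CACGC.

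Flt1, chr5:147726012-147726261, minus strand: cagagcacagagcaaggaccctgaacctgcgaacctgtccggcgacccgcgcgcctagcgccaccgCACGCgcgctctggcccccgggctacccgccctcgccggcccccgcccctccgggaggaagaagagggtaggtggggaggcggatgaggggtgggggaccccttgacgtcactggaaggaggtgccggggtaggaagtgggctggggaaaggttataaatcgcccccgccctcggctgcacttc
Vegfa, chr17:46032378-46032627, minus strand: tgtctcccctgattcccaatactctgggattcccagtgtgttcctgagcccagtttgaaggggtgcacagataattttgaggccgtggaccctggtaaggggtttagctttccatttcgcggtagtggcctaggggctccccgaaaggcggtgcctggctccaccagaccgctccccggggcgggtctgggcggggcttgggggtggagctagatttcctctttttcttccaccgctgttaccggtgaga
Hif1a, chr12:73907617-73907866, plus strand: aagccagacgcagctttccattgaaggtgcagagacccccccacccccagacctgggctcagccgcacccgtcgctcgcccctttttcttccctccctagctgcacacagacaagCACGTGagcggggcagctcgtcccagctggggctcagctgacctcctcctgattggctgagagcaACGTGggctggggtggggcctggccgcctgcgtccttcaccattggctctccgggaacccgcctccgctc

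The Flt1 window held 1 match, the printed Vegfa window 0, and the Hif1a window 3, of which 2 are the same 6 bases read on both strands. A second start of Vegfa, with its window at chr17:46025164-46025413, had 2 matches. Windows were at hand for 7 of the 10 genes, without Angpt1, Angpt2 and Epas1, and 4 of the 7 held a core before their outermost start. Of the 32851 windows of all genes, where every start of a gene was counted, 38.6% held a core. The 2 shares are thus over unlike sets of windows. A match is a stretch of letters, not a site shown to be bound, and a window without one says nothing of regions farther away.

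Endothelial cells, in which KDR, FLT1 and TEK are best known, were looked for through 14 markers. Between 2 and 5 of the 14 were detected on each array, and Cdh5, Cldn5, Emcn, Robo4 and Tie1 on none. The brightest probe of this list was that of Egfl7. It read 13.68 and 13.08 in WT, 13.39 and 13.21 in TIA1 KO and 11.61 and 11.17 in TIAR KO MEF. Egfl7 was the only marker of the list called against WT, lower in TIAR KO MEF. Among all gene names 7.18% were called without TIAR and 4.51% without TIA1. The 1 call among 14 markers is near the share for TIAR KO MEF and so no result about the list. The summed intensity of the list was 15122 and 10809 in WT, 13640 and 12003 in TIA1 KO and 5406 and 4369 in TIAR KO MEF, so that no knockout array exceeded the higher WT array. Without Egfl7 the other 13 markers summed to 2039 and 2168 in WT, 2894 and 2553 in TIA1 KO and 2280 and 2071 in TIAR KO MEF, with both TIA1 KO arrays above both WT arrays. The TIA1 KO arrays detected only 3 and 2 of the 14 markers, Egfl7 included. Most markers in this sum were thus undetected there, and it is no measure of endothelial RNA. Plvap, the next brightest, read 8.88 and 8.97 in WT, 9.33 and 10.02 in TIA1 KO and 9.33 and 8.86 in TIAR KO MEF and was not called.

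Markers of mural cells moved with the knockouts. Of 6 such markers 3 rose in TIA1 KO MEF, and 3 rose and 1 fell in TIAR KO MEF, where 2.88% of all gene names rose in the former and 4.36% rose and 2.82% fell in the latter. Acta2, which encodes smooth muscle actin and gave the brightest probe, read 12.63 and 12.99 in WT, 17.58 and 17.73 in TIA1 KO and 18.45 and 18.26 in TIAR KO MEF. Cspg4, a proteoglycan of pericytes, read 10.31 and 10.60 in WT, 12.93 and 12.99 in TIA1 KO and 7.19 and 7.25 in TIAR KO MEF, with the same order of groups as Angpt1. The summed intensity of the list was 16331 and 20994 in WT, 273749 and 303072 in TIA1 KO and 467952 and 413431 in TIAR KO MEF, and Rgs5 and Myh11 were detected on no array. The part of these markers in the changes of Flt1, Angpt1 and Angpt2 was not tested. Of 5 macrophage markers 0 were called in TIA1 KO MEF and 1 lower in TIAR KO MEF, with Ptprc and Emr1 detected on no array, and of 4 epithelial markers 1 and 3 rose. The 1 epithelial rise in TIA1 KO MEF, that of Krt8, was lost under each of the 5 other scalings and tables tried (adjusted p between 0.0509 and 0.5).

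The genes most like Vegfa and Hif1a over the 6 arrays were taken as those with the smallest root mean square difference of centred log2 values among 9821 genes detected on all arrays. For Vegfa these were Lclat1, Tm7sf3 and Fads2, with differences of 0.06, 0.07 and 0.08. Those named for Hif1a are Patl1 and Rg9mtd3, with 0.06 each. Since 6 arrays from 3 lines give few points, this is a description of these arrays.

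The authors' own log2 values of the same arrays correlated with those above at 0.997 or more on each array, and called the same 4 and 3 genes against WT. In their table Vegfa read 13.11 and 13.07 in WT, 14.35 and 14.38 in TIA1 KO and 13.95 and 14.05 in TIAR KO MEF. The Vegfa rise in TIA1 KO MEF was 1.27 there (adjusted p = 0.0473). The direct difference of Angpt2 was 3.33 and was not called in that table (adjusted p = 0.0645).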

How the data were processed

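Total RNA of 6 cultures was hybridised to 6 one-colour Agilent mouse arrays of 60-base probes, 2 per line. The deposited scanner files held raw and processed intensities of each spot, extracted with Feature Extraction 10.7.3.1 and placed on mm9, and the authors deposited a second table of log2 values. The deposited log2 table was scaled by the authors with background correction, loess and quantile normalization as their methods state, and its agreement with the scanner files was checked array by array.

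Here the mean spot intensity was corrected with normexp (offset 50), taken to log2, and normalized by 1 pass of fast cyclic loess and by quantiles. Control spots and outlier spots were left out, and spots of a probe were averaged. Each comparison was fitted in limma 3.58.1 (R 4.3.3) on its own 4 arrays over 55681 probes with Benjamini-Hochberg adjustment, and was called at an adjusted p under 0.05 and a fold above 2, the thresholds of the study. The fits were tested on simulated data with known changes. These were all larger than the called changes of Vegfa, Vegfc, Figf and Angpt2 against WT, so recovery at those sizes was not tested. With 2 arrays per group the precision rests on limma's pooling of the spread across probes, no array had a saturated spot among these probes, and the p-values measure the spread between 2 cultures of 1 line. A gene was read from its probe with the highest mean.

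Probes not well above background on both arrays of a group have only a limit there, set for each array at the higher of the lowest signal well above background and the probe's own. Where 1 array of a group detected a probe, a limit with the other array set this way was added after the data were seen. Named were the 10 genes with every probe, Tia1, Tial1, all 4 further genes of the VEGF axis, up to 4 called rises and 4 called falls of each other pathway list, the markers with the strongest signal or a call, and the 3 genes most like Vegfa and Hif1a. Some items that these rules name are not reported here. The genes, lists and tests were chosen with earlier results of these data known. Alternatives changed the background offset, the normalization, the filter, the probe summary, the model, the value table and the arrays used. Intron and exon positions of the probes were not analysed here, since no annotation of mm9 was used.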

Additional observations from a re-analysis of the deposited data

Results flagged for a closer look

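Among the 10 genes and the 69 genes of the pathway lists, the difference between TIAR KO and TIA1 KO MEF itself passed the test for 14. Of all gene names 4.18% passed, 2.06% higher and 2.12% lower. All values here are log2 fold changes of TIAR KO over TIA1 KO MEF. Among the 10 genes, Angpt1 was lower (−4.07) and Angpt2 higher (3.11) in TIAR KO MEF, where 1 of the 2 arrays of the lower group detected each. In the angiopoietin axis Ptprb (3.43) and Angpt4 (2.06) were higher and Angptl2 (−2.04) was lower, and Ptprb and Angpt4 were not detected in TIA1 KO MEF, where they were at least 7.46-fold and 2.63-fold lower. Of the 40 targets of the hypoxia-inducible factors 6 were lower in TIAR KO MEF: Stc2 (−5.12), Adm (−4.56), Car12 (−4.16), Lox (−2.14), Ankrd37 (−1.999) and Plod2 (−1.71). Another 3 were higher: Car9 (1.98), Pfkfb3 (1.63) and Loxl2 (1.61). Markers passed as well, 3 of 12 of fibroblasts and 2 of 6 of mural cells among them. Stc2 was not detected in TIAR KO MEF and was at least 29.0-fold lower there, Adm was detected on 1 TIAR KO array and was at least 23.7-fold lower, and Car9 was not detected in TIA1 KO MEF and was at least 2.54-fold higher in TIAR KO MEF. Without either TIAR KO array, or with a block for the replicate number, no probe passed in this comparison. Groups of 2 arrays were too small to look for single arrays that stood apart by gene.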

How the results depend on the processing

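The 30 log2 fold changes of the 10 genes in 3 comparisons were each read under 14 alternatives. Of these values, 360 kept both direction and side of the threshold. With direction kept, 30 lost the call and 7 gained it. Another 23 changed sign and are counted as such whether or not the call changed too. The rises of Flt1 and Angpt2 in TIAR KO MEF passed under all 14, the rises of Flt1 and Angpt1 in TIA1 KO MEF under 11. The cause was not tested for any change below, other than fewer arrays or probes entering a fit. Counts are given as genes of the 10, genes of the 69 in the pathway lists, and probes.
From the processed intensities of the scanner software at a common 75th percentile, TIA1 KO against WT gave 0 genes, 0 pathway genes and 0 probes, with the median of all probes at 1.98, and Hif1a was at −0.24 (main value 0.10). TIAR KO against WT gave Vegfc at 0.12, and TIAR KO against TIA1 KO 4 pathway genes.
With arrays scaled to a common median, TIA1 KO against WT gave 7 genes, 43 pathway genes and 15801 probes, of which 11.9% were higher (61.6% in the main result). Vegfa was at −0.29, Figf −1.02, Kdr −1.33, Hif1a −1.48 and Epas1 −1.33. In TIAR KO against WT, Kdr was at −0.14 and 34.4% of calls were higher (58.8% in the main result). TIAR KO against TIA1 KO gave 5 genes, 23 pathway genes and 8307 probes, 87.2% of them higher (51.3% in the main result), with Vegfa 0.77, Flt1 0.85 and Hif1a 1.00 and the median of all probes at 0.63.
With the fit kept to probes detected on both arrays of a compared group, TIA1 KO against WT gave 19 pathway genes and TIAR KO against TIA1 KO 2910 probes, and 44.7% of the TIA1 KO calls and 61.8% of the direct calls were higher. With all probes of a gene averaged, Hif1a was at −0.044 in TIA1 KO, 4.54e-05 in TIAR KO and 0.044 between the knockouts, and Epas1 at −1.24 and −0.13. With all 3 groups fitted together, TIA1 KO against WT gave 21 pathway genes and 3986 probes, and TIAR KO against TIA1 KO 3183 probes. The authors' log2 table gave 1309 probes in TIA1 KO, and 1 gene and 6 pathway genes between the knockouts.
Arrays of the same replicate number did not deviate together: the correlation of their deviations from the group means was 0.08 for WT with TIA1 KO, 0.03 for WT with TIAR KO and −0.07 for TIA1 KO with TIAR KO. With a replicate block, TIA1 KO against WT gave 2 genes, 6 pathway genes and 671 probes, TIAR KO against WT 3 genes, 21 pathway genes and 3308 probes, and TIAR KO against TIA1 KO 0 genes, 0 pathway genes and 0 probes.
Leaving out 1 array at a time, with the lone array of a group taken to vary like the other group, TIA1 KO against WT gave 0 to 5 genes, 0 to 23 pathway genes and 0 to 10735 probes, lowest without either WT array and highest without the second TIA1 KO array. TIAR KO against TIA1 KO gave 0 to 2 genes, 0 to 21 pathway genes and 0 to 10086 probes, lowest without either TIAR KO array and highest without the second TIA1 KO array, and TIAR KO against WT 2 to 3 genes. Hif1a ran from −0.11 to 0.31 in TIA1 KO, from −0.13 to 0.082 in TIAR KO and from −0.33 to 0.083 between the knockouts, Vegfc from −0.96 to 0.86 in TIAR KO, and Flt1 from −0.57 to 0.025 between the knockouts. Angpt1, Angpt2, Pgf, Stc2, Adm, Slc16a3 and the dimmer probes of Kdr and Epas1 are limited by signal over background in the group where they were dim.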
